A study of Mus musculus with 8 samples.

Results

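The comparison described here is HU210 against its vehicle, DMSO, at 8 h in N2A cells, a mouse neuroblastoma line that carries the cannabinoid receptor CB1R. It rests on 2 of the 8 sequenced libraries, taken by their labels: cells given 2 µM HU210 for 8 h, and cells given drug-free DMSO for 8 h. Both had first been starved for 16 h in serum-free medium with 0.1% BSA, as had the 6 libraries of HU210 and DMSO at 2, 4 and 6 h. All groups are the same line with no allele added, and the line stands in for neurons only as far as a neuroblastoma does. Each condition is 1 library made from pooled mRNA of 2 to 3 independent experiments, so no value has a replicate error and no difference a p-value. The 3 earlier DMSO libraries were used instead to show how far untreated cells lay apart, although hour and library cannot be told apart among them.

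HU210 is a synthetic cannabinoid that activates CB1R. CB1R couples to the inhibitory G proteins Gi and Go, which lower cyclic AMP, and its signal also runs through the kinase ERK and, in N2A cells, through the small GTPase Rap, the kinase Src and the transcription factor Stat3 towards neurite outgrowth. ERK activity switches on immediate-early genes, which encode transcription factors such as Egr1 and Fos, and shortly after them a set of feedback inhibitors, the Dusp phosphatases and the Sprouty and Spred proteins, which damp the same kinase.

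Levels are FPKM, fragments counted per length of transcript and scaled per library, here with an upper-quartile correction. A change is the difference of log2(FPKM + 1), HU210 minus DMSO, which understates changes of weakly expressed genes. Of 16385 genes listed at 8 h, 11306 were listed at all 4 time points with a mean of at least 1 FPKM over the 8 libraries, and these were compared. Whether the 4 time points were scaled in 1 run is not stated, so levels set side by side across hours carry that doubt. The study gives the reads sequenced per sample, but the number of reads behind a single value is not given. As bulk RNA, a lower level can come from fewer cells of a kind or from less RNA per cell.

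The 2 libraries at 8 h were close to each other. HU210 was higher than DMSO by at least 1.5-fold for 132 genes (1.17% of those compared) and lower for 63 (0.557%). This excess of higher genes rested on the scaling: the counts were 97 and 85 with each library centred on its median, and 94 and 88 after removing the dependence on GC and length. At a fold of 1.3 the counts were 495 (4.38%) and 163 (1.44%). The median change was 0.04 and the SD over genes 0.21. Each pair of DMSO libraries had more genes past 1.5-fold, 299 to 968 in either direction, against 195 between HU210 and DMSO at 8 h. The DMSO 4 h library stood farthest from the rest. In the other own-hour pairs the counts were 57 higher (0.504%) and 164 lower (1.45%) at 2 h, 313 (2.77%) and 983 (8.69%) at 4 h, and 196 (1.73%) and 72 (0.637%) at 6 h. Across genes, the change at 8 h had a Spearman correlation of -0.14 with GC content, against 0.50 at 4 h. So a fold of 1.5 between 2 libraries was within what untreated libraries showed, and each gene was also set against all 4 DMSO libraries. Of 12 neuroblastoma markers, 11 were listed and 10 had at least 1 FPKM in both libraries; their summed level was 1028 FPKM with HU210 and 1027 with DMSO at 8 h, within the 945 to 1069 of the earlier DMSO libraries. Microglia and macrophage markers summed to 0.270 and 0.460 FPKM, and Csf1r and Itgam, receptors that define those cells, were under 0.1 in both. Sums for other cell types were higher, in the same order of libraries. They were 8.28 and 8.50 for astrocyte, 5.97 and 6.27 for oligodendrocyte, 4.86 and 5.69 for endothelium and 2.37 and 2.17 for fibroblast markers.

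**Figure D1:**
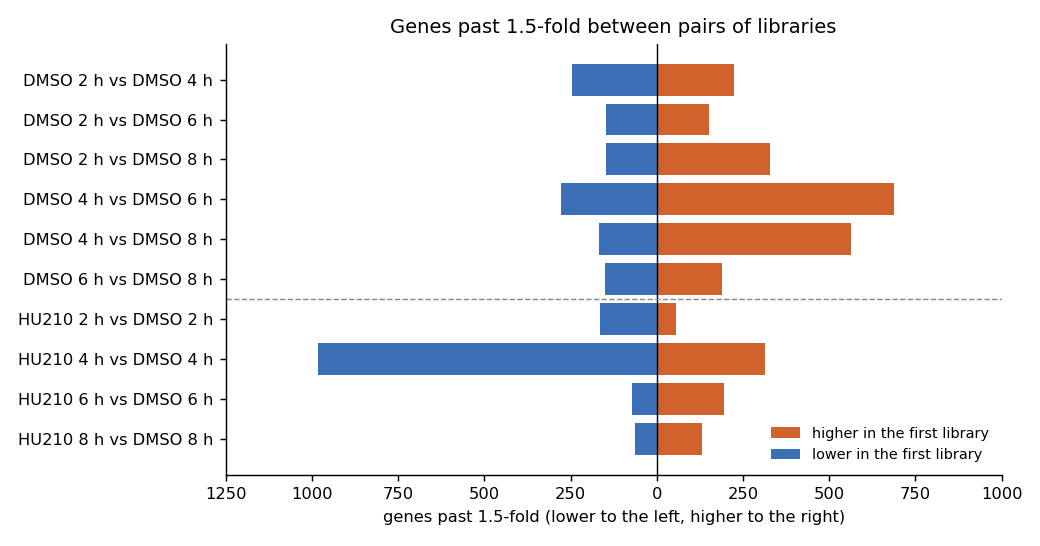
Number of genes (x axis) past 1.5-fold, higher to the right and lower to the left, in each pair of libraries (y axis). The HU210 and DMSO pair at 8 h, with 132 and 63 genes, has fewer than any of the 6 pairs of DMSO libraries above the dashed line.

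In the 8 h HU210 library, most immediate-early genes and ERK feedback inhibitors lay above all 4 DMSO libraries, by small amounts. Of 25 immediate-early genes compared, 24 had a change above 0, with a median of 0.22 against 0.04 over all genes, and 14 (56.0%) exceeded every DMSO library. The list called feedback inhibitors here had 12 genes: Dusp, Sprouty and Spred genes, and the transcription factors Etv4 and Etv5, which are not inhibitors. All 12 had a change above 0, with a median of 0.26, and 9 (75.0%) exceeded every DMSO library. Etv4 and Etv5 were among the 9, each by 0.03 on the log2 scale. Over all genes, 14.7% lay above all 4 DMSO libraries and 8.10% below, an order that turned to 9.84% and 13.0% with each library centred on its median; none of the 37 genes in these lists lay below. Only Egr1 and Spry1 passed 1.5-fold. None of the 37 overlaps another compared gene on the genome.

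Egr1, a zinc finger transcription factor made within minutes of ERK activation, stood at 18.3, 18.8, 27.0 and 18.9 FPKM in the DMSO libraries of 2, 4, 6 and 8 h, and at 36.8, 24.3, 19.2 and 32.2 in the HU210 libraries of the same hours. Its change at 8 h was 0.74, beside 0.97, 0.35 and -0.47 at the earlier hours in order. The 8 h HU210 value was above all 4 DMSO values, but the DMSO 6 h library was itself high, and the nearest distance was 0.24 on the log2 scale. Egr3, of the same family, was at 0.607, 0.623, 1.56 and 0.723 FPKM with DMSO and 2.32, 1.33, 0.659 and 1.40 with HU210. The groups overlapped for Egr3, because its DMSO 6 h value exceeded the 8 h HU210 value. Ier3, an early gene known for its action on ERK dephosphorylation and cell survival, was at 14.6, 11.5, 17.4 and 14.4 FPKM with DMSO and 19.6, 15.0, 16.4 and 21.7 with HU210, highest at 8 h. Egr2 was at 1.46 FPKM in the 8 h HU210 library against 0.623 to 1.15 over the DMSO libraries. For Ccn1, a secreted matrix protein, the values were 3.65 against 2.30 to 2.87, and for Jun 14.3 against 11.4 to 13.4. Fos, the partner of Jun in AP-1, was low throughout, at 1.83 with HU210 at 8 h and 1.42 to 1.80 with DMSO. Klf10 had the lowest change of the list, -0.00, with 14.8 and 14.8 FPKM at 8 h.

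Among the feedback inhibitors, Spry1, a Sprouty protein that blocks the route from receptor tyrosine kinases to ERK, was at 6.19, 9.54, 8.41 and 6.67 FPKM in the DMSO libraries and 8.35, 8.20, 9.12 and 10.6 in the HU210 libraries of 2, 4, 6 and 8 h, a change of 0.60 at 8 h. Dusp5, a nuclear ERK phosphatase, was at 3.80, 4.86, 4.50 and 3.24 FPKM with DMSO and 6.01, 4.27, 4.72 and 5.23 with HU210. For both genes the 8 h HU210 value was above all DMSO values, with the DMSO 4 h library nearest, 0.14 and 0.09 lower on the log2 scale. Dusp6, the cytoplasmic ERK phosphatase, was at 47.5, 51.5, 74.8 and 58.6 FPKM with DMSO and 74.7, 69.0, 66.5 and 76.8 with HU210. Dusp4, another phosphatase of the nucleus, was at 48.0, 58.5, 77.6 and 54.4 and 74.5, 64.8, 64.7 and 72.8. For Dusp6 and Dusp4 the DMSO 6 h library reached 74.8 and 77.6 FPKM, next to the 8 h HU210 values, so the groups nearly met for the first and overlapped for the second. Spry4 was at 11.4 FPKM against 7.73 to 10.2 with DMSO, and Spred2 at 30.7 against 24.8 to 27.6. Etv4, an ERK-driven transcription factor, had the lowest change of the list, 0.04.

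Each hour has its own DMSO library, so the 4 own-hour changes share no sample. The median change of the immediate-early genes ran 0.21, 0.05, 0.00 and 0.22 from the first hour sampled to the last, and that of the feedback inhibitors 0.19, -0.06, -0.03 and 0.26. Over all genes the medians were -0.05, -0.08, 0.06 and 0.04. Relative to each gene's DMSO mean, the immediate-early genes had a median of 0.18 in the 8 h HU210 library and of -0.08 to 0.08 in the DMSO libraries, and the feedback inhibitors 0.22 and -0.11 to 0.12. In the HU210 libraries of 2, 4 and 6 h the medians were 0.19, -0.02 and 0.07 for the immediate-early genes and 0.05, 0.04 and 0.15 for the feedback inhibitors. The low own-hour change of the feedback inhibitors at 6 h came with a high DMSO library (0.12), and the higher one at 2 h with a low DMSO library (-0.11). Centring each library on its median left 9 of the 25 immediate-early genes and 6 of the 12 feedback inhibitors above all 4 DMSO libraries, against 9.84% of all genes. Removing the trend on GC content and length left 12 and 5, against 12.0% of all genes.

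**Figure D2:**
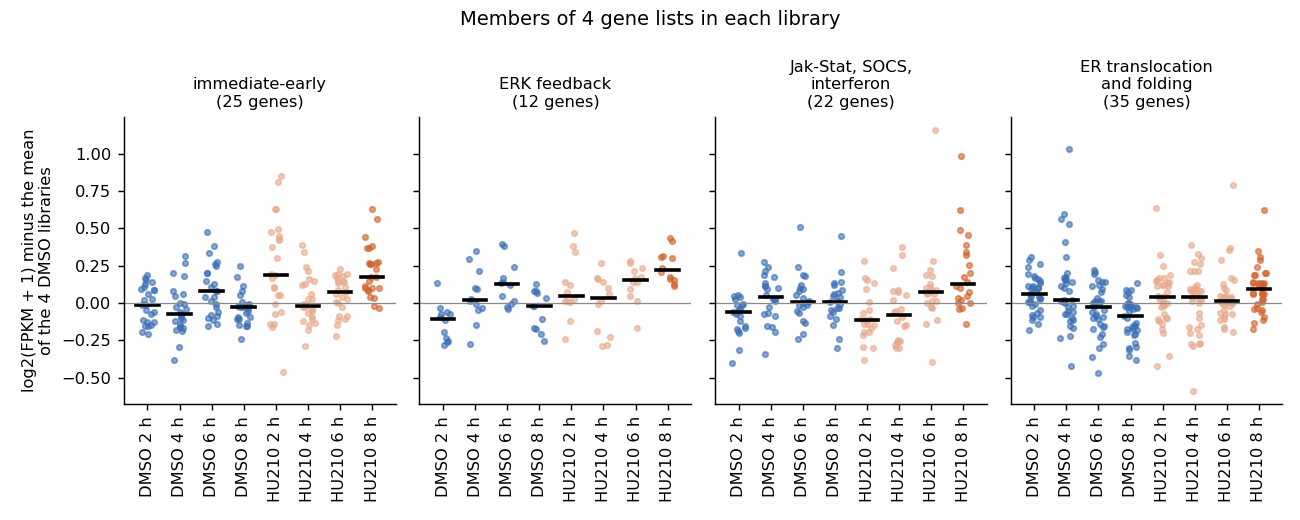
Each point is 1 gene of a list in 1 library, as log2(FPKM + 1) minus the gene's mean over the 4 DMSO libraries (y axis); black bars are medians, blue is DMSO and orange HU210. In the 8 h HU210 library the medians are 0.18 for immediate-early genes and 0.22 for ERK feedback inhibitors, above those of each of the 4 DMSO libraries.

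Promoters were read to show which of these genes carry the letters that CREB, the transcription factor of cyclic AMP, or Egr proteins bind. The cyclic AMP response element TGACGTCA was searched on both strands, as was the Egr site GCGNGGGCG; the searched motifs can overlap in a promoter and were counted apart. RefSeq promoters (build GRCm38.p6, 250 bases before to 50 after a start site) were found for 19 of the 25 immediate-early genes and for 9 of the 12 feedback inhibitors. A gene was counted if any of its promoters held the motif. The response element was found for 3 of the 19 genes (15.8%) and for 3.86% of the 8590 compared genes with a promoter. The Egr site was in 7 of the 19 (36.8%) and in 12.5% of all. Neither was found for the 9 feedback inhibitors. Nor was either found for the 5 genes with a promoter higher than all 4 DMSO libraries by 1.5-fold, or for the 5 lower. The Stat site TTCNNNGAA was in 1 of the 19 and in 7.99% of all, the E-box CACGTG in 5 and 12.0%, and the heat shock element GAANNTTC in 2 and 6.83%. The 3 promoters below show immediate-early genes with the sites in capitals: the Egr site alone in Nr4a2, a nuclear receptor, and both sites in Btg2, an antiproliferative cofactor, and Maff, a small Maf protein.
Nr4a2, chr2:57123954-57124253, minus strand: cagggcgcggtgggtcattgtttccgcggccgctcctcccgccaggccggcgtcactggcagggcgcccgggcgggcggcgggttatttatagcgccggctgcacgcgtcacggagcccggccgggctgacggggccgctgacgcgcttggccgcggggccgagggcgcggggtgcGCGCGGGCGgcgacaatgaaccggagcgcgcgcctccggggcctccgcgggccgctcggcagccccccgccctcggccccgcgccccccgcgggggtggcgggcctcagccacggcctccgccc
Btg2, chr1:134079106-134079405, minus strand: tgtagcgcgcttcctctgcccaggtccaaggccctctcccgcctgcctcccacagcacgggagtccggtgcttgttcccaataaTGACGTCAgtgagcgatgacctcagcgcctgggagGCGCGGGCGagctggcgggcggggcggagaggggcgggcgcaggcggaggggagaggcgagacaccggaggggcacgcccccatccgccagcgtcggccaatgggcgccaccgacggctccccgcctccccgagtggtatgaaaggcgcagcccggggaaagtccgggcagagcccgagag
Maff, chr15:79347270-79347569, plus strand: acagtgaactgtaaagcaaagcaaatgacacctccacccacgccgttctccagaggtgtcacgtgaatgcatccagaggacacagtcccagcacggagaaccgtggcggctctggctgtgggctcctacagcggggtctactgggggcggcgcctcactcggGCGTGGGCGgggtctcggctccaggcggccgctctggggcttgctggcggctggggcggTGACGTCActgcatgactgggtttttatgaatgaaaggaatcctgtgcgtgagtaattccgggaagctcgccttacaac
The site of Nr4a2 begins 74 bases before the start. In Btg2 the response element begins at -166 and the Egr site at -131, and in Maff they begin at -29 and -88. The changes at 8 h were 0.46, 0.14 and 0.25, with 1.92 FPKM against 1.04 to 1.82 with DMSO for Nr4a2, 3.92 against 2.68 to 3.72 for Btg2 and 8.33 against 6.82 to 8.93 for Maff. Only Nr4a2 and Btg2 were above all 4 DMSO libraries.

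Of 22 compared genes of Jak-Stat signalling, its SOCS inhibitors and the interferon response, 11 (50%) lay above all 4 DMSO libraries and none below. Over all genes 14.7% lay above and 8.10% below. With centring 10 lay above and 1 below, against 9.84% and 13.0% of all genes. Removing the trend on GC content and length also left 10 and 1, against 12.0% and 13.7%. The median change was 0.15. Stat5a and Myd88 passed 1.5-fold, both higher, against 1.17% of all genes. Ddx58, the RNA sensor RIG-I, was at 2.01, 2.12, 1.98 and 2.29 FPKM with DMSO and 1.95, 1.61, 2.09 and 3.77 with HU210 at 2, 4, 6 and 8 h, so that only the 8 h HU210 library stood apart. Sh2b3, the adaptor Lnk that restrains Jak2, was at 16.4, 19.1, 22.3 and 17.5 with DMSO and 22.9, 24.5, 18.2 and 26.6 with HU210. Socs5 was at 5.18 FPKM against 3.36 to 4.28, and Jak2 at 5.07 against 3.64 to 4.80. Irf1, an interferon-induced transcription factor, was at 12.7 against 8.06 to 11.1. Isg15, a ubiquitin-like interferon product, had the lowest change of the list, -0.13. Stat3 was not among the 22 genes. Its change at 8 h was -0.23, at 41.1 FPKM inside the 35.1 to 48.2 of DMSO. Myd88, the adaptor of Toll-like receptors, was at 3.12, 2.08, 2.28 and 1.77 FPKM with DMSO and 2.04, 1.65, 2.49 and 3.48 with HU210. Its overlapping neighbour on the opposite strand, Acaa1a, was lower with HU210 at 8 h, at 3.36 against 4.90, 3.95, 4.42 and 5.11 FPKM.

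In the endoplasmic reticulum list, 30 of 35 genes had a change above 0 and the median was 0.21, but 7 (20.0%) lay above all 4 DMSO libraries, near the 14.7% of all genes. Without the DMSO 4 h library it was 14 (40%), against 26.4% of all genes. The DMSO 8 h library was the lowest of the controls for this list: its median was -0.09 from the mean of the 4, against 0.10 for HU210 at 8 h. The 7 were Hspa5, Dnajb9, Pdia4, Herpud1, Ddit3, Atf4 and Sdf2l1, while Hsp90b1, Calr, Hyou1, Manf, Creld2, Dnajb11, Dnajc3 and Pdia6, chaperones and folding factors of the same list, were not above all 4. Hspa5, the chaperone BiP, was at 262, 220.4, 252 and 201 FPKM with DMSO and 232, 246, 258 and 274 with HU210. Dnajb9, its co-chaperone, was at 14.9, 12.0, 11.7 and 10.7 with DMSO and 13.9, 9.96, 15.2 and 15.8 with HU210. Pdia4, a disulfide isomerase, was at 60.2 FPKM against 47.4 to 49.2, Herpud1 at 57.3 against 49.5 to 51.5, and Ddit3, the stress factor CHOP, at 119 against 89.8 to 108. Xbp1, a transcription factor of the unfolded protein response, was not above DMSO 6 h, at 65.9 against 51.2 to 67.6. Sec63, which helps proteins through the translocon, was the one member past 1.5-fold. It was at 44.9, 106, 36.7 and 39.1 FPKM with DMSO and 80.0, 67.1, 89.1 and 79.2 with HU210, so the DMSO 4 h library exceeded all HU210 libraries.

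A stricter count asked for 1.5-fold past each of the 4 DMSO libraries. It held for 10 genes higher with HU210 (0.0884%) and 11 lower (0.0973%), of which 6 and 4 encode proteins. The rest were small nucleolar or Cajal body RNAs, a microRNA precursor, pseudogenes and long noncoding RNAs. Positions are those of the mm9 build in the GENCODE M1 annotation.

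Pde4d (chr13:109240142-110743669) encodes a phosphodiesterase that breaks down cyclic AMP. It was at 3.82, 4.22, 3.15 and 3.94 FPKM in the DMSO libraries of 2, 4, 6 and 8 h and at 2.60, 2.39, 11.9 and 7.32 in the HU210 libraries. The 6 h and 8 h HU210 values were above every DMSO value and the 2 h and 4 h values below, with changes of -0.42, -0.62, 1.63 and 0.75. No other compared gene overlaps it but Rps3a3, which sits inside it and had a change of 0.04. Stat5a (chr11:100720665-100746483), a cytokine-activated transcription factor, was at 2.00, 1.94, 2.09 and 2.35 FPKM with DMSO and 1.86, 1.96, 5.88 and 5.10 with HU210. Again the 6 h and 8 h HU210 values stood above all others. The annotation has Stat3, its neighbour, overlapping it on the opposite strand. Stat3 was at 35.4, 36.4, 35.1 and 48.2 FPKM with DMSO and 37.0, 41.0, 27.1 and 41.1 with HU210, lowest of all 8 libraries in the 6 h HU210 library where Stat5a was highest.

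Nmb (chr7:88047114-88049962), the bombesin-like peptide neuromedin B, was at 0.583, 0.771, 0.798 and 0.586 FPKM with DMSO and 0.680, 1.56, 0.743 and 2.97 with HU210, a change of 1.32. Pih1d2 (chr9:50425426-50433105), a dynein assembly protein by its domain, was at 0.810, 1.12, 0.604 and 0.511 with DMSO and 0.482, 0.654, 0.816 and 3.13 with HU210. Its opposite-strand neighbour Nkapd1 was lower, at 5.07 against 11.1, 10.8, 9.66 and 7.84 FPKM with DMSO. Ap4s1 (chr12:52791953-52839918), the small subunit of the AP-4 coat that sorts cargo at the trans-Golgi network, was at 8.15, 7.67, 6.71 and 5.12 with DMSO and 7.64, 5.99, 8.20 and 13.8 with HU210. Hyi (chr4:118032595-118035349), a hydroxypyruvate isomerase, was at 2.85, 1.55, 3.44 and 2.62 with DMSO and 2.30, 3.55, 3.60 and 6.19 with HU210. For each of these 4 genes the 8 h HU210 library was the highest of all 8.

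Among the genes lower than all 4 DMSO libraries, Stk39 (chr2:68048502-68310325), the kinase SPAK that regulates chloride cotransporters, was the most abundant. It was at 59.8, 110.5, 77.4 and 92.3 FPKM with DMSO and 54.7, 55.8, 70.1 and 38.2 with HU210, a change of -1.25 at 8 h and -0.97 at 4 h. The HU210 value was below that of DMSO at all 4 hours, and at 2 h and 6 h by no more than 0.14 on the log2 scale. Gca (chr2:62502342-62532166), the calcium-binding protein grancalcin, was at 2.25, 4.02, 3.21 and 4.40 with DMSO and 1.92, 2.49, 2.96 and 0.633 with HU210, and its change of -1.72 was the largest decrease of these 4 genes. H2-Q6 (chr17:35561795-35567000), a class I histocompatibility gene, was at 8.92, 6.70, 9.15 and 7.58 with DMSO and 5.80, 10.6, 7.51 and 2.90 with HU210. Tmsb15b1 (chrX:133508561-133511413), a beta-thymosin that binds actin monomers, was at 1.76, 1.62, 1.78 and 1.32 with DMSO and 1.43, 1.53, 1.35 and 0.319 with HU210. H2-Q6 and Tmsb15b1 belong to families of near-identical copies between which reads can be split, so their values are uncertain.

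Of the genes that do not encode proteins, Hectd2os, an antisense RNA of Hectd2, was at 10.7, 4.47, 12.9 and 5.01 FPKM with DMSO and 12.4, 8.87, 15.8 and 0.358 with HU210. Hectd2, on the other strand, was at 8.52 in the 8 h HU210 library and 2.63 to 7.35 with DMSO, above all of them. The small RNAs Gm25588 and Gm23455 were higher, and Mir1b, Gm22488, Snora17, Snora78 and Scarna6 lower; Mir1b, Gm22488 and Snora17 were listed at 0 in the 8 h HU210 library and Gm25588 at 0 in the 8 h DMSO library. These entries are 100 to 265 bases long, shorter than a sequenced fragment or close to it. Gm7722 and Gm8425 are pseudogenes, at 5.38 and 0.0476 FPKM against 1.46 to 2.47 and 1.07 to 1.57. The noncoding RNA 4930412M03Rik was at 5.98 against 1.16 to 3.17.

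**Figure D3:**
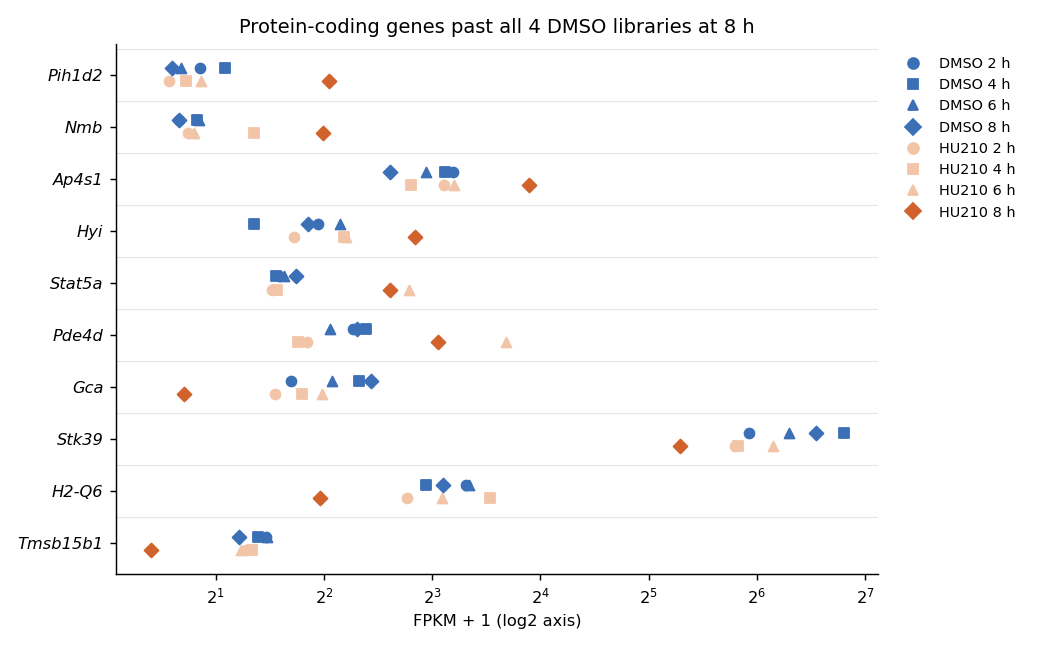
FPKM + 1 (x axis, log2 scale) of the 10 protein-coding genes past all 4 DMSO libraries by 1.5-fold, in each of the 8 libraries. The 8 h HU210 library (dark orange diamond) lies outside the blue DMSO points for each gene, and Stat5a and Pde4d also stand high at 6 h.

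Many genes past 1.5-fold at 8 h overlap a neighbour on the genome. Of the 83 protein-coding genes that were higher, 46 (55.4%) overlap another compared gene, as do 15 of the 36 that were lower (41.7%) and 18.0% of all 10584 protein-coding genes compared. For 11 of the 83 (13.3%) and 6 of the 36 (16.7%), an overlapping gene differed by at least 1.3-fold in the opposite direction, against 1.21% of all. All 6 of the higher genes past all 4 DMSO libraries overlap a compared gene, and 4 of those neighbours had a change of the opposite sign; none of the 4 lower genes does. A stranded kit is named among the study's materials, but whether reads were assigned by strand when FPKM were estimated is not stated, so values of such pairs are uncertain, and the part of overlap in these changes was not tested.

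A middle tier, set after the values were seen, held genes past 1.5-fold at 8 h and outside the range of all 4 DMSO libraries. It had 67 genes higher (0.593%) and 31 lower (0.274%), 49 and 18 of them protein-coding. Beyond those already named, the farthest from any DMSO library without an overlapping compared gene included Tnfaip2, a TNF-induced protein, at 8.54 FPKM with HU210 at 8 h and 3.26 to 5.71 with DMSO. Mospd2, an endoplasmic reticulum tether, was at 23.9 against 13.2 to 16.6, and Arid5a, an RNA-binding protein of inflammatory transcripts, at 8.15 against 4.16 to 5.88. Prkg2, a cyclic GMP-dependent kinase, was at 2.00, 2.92, 4.40 and 3.28 FPKM with DMSO and 2.62, 3.67, 2.41 and 6.32 with HU210. Its changes were -0.66 at 6 h and 0.78 at 8 h. Gm8618 was at 6.47 against 1.51 to 4.24. On the lower side, Pxylp1, a xylose phosphatase of proteoglycan synthesis, was at 3.38, 3.35, 6.25 and 6.77 FPKM with DMSO and 2.88, 2.53, 3.18 and 2.02 with HU210, below DMSO at all 4 hours. Rap1gap2, which inactivates the GTPase Rap1, was at 8.35, 8.10, 8.96 and 11.1 with DMSO and 8.13, 10.8, 9.72 and 6.55 with HU210. Its 8 h HU210 value was the lowest of the 8 libraries, with a change of -0.68. Rap1gap2 was the one gene of the 24 in the Go, Rap, Src and Stat3 list past 1.5-fold. Over all genes 0.557% were lower. Rap1a itself was at 7.25 FPKM with HU210 and 5.63 to 9.96 with DMSO.

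Other genes of that tier overlap a compared gene. Tns2, a focal adhesion protein, was at 4.60 against 2.40 to 2.98 FPKM, and Ccdc116 at 4.92 against 2.84 to 3.32. Rell2 was at 5.86 against 2.45 to 4.16, while Fchsd1 on the other strand was lower, at 1.56 against 1.72 to 4.93. Cp, the copper oxidase ceruloplasmin, was at 0.268 against 0.785 to 1.73, and its partner Hps3 at 6.59 against 4.07 to 6.46. Tbcd, a tubulin folding cofactor, was the most abundant of the tier's lower genes named here, at 63.5, 61.2, 61.7 and 70.2 FPKM with DMSO and 56.4, 66.6, 68.7 and 46.1 with HU210. Ccdc90b, Abhd15 and Lime1 were at 2.79, 1.10 and 5.84 FPKM with HU210 at 8 h, below DMSO ranges of 4.33 to 6.92, 1.89 to 2.54 and 7.07 to 9.41.

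For many called genes the 8 h DMSO library, not the HU210 library, lay apart from the earlier controls. Of the 132 genes higher, the HU210 value was within the range of the DMSO libraries of 2, 4 and 6 h for 51, and for 39 of those the DMSO 8 h value was below it. Of the 63 lower, 30 had the HU210 value within that range, 17 of them with DMSO 8 h above it. Against the 3 earlier DMSO libraries, the 8 h HU210 library was past 1.5-fold above for 22 genes (0.195%) and below for 40 (0.354%). The 8 h DMSO library was above for 21 (0.186%) and below for 57 (0.504%), so it stood no closer to the earlier controls than the treated one did by these counts. Most of the genes below do not encode proteins, 28 of the 40 for HU210 and 39 of the 57 for DMSO. Among protein-coding genes, the counts above and below were 15 and 12 for HU210 and 14 and 18 for DMSO.

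Rbm12, an RNA-binding protein, was at 24.2, 36.0, 15.7 and 12.7 FPKM with DMSO and 12.5, 11.5, 19.4 and 28.5 with HU210 at 2, 4, 6 and 8 h. Its change of 1.11 at 8 h came with changes of -0.90 at 2 h and -1.56 at 4 h. Sfxn5, a mitochondrial transporter, was at 5.21, 6.27, 5.31 and 2.59 with DMSO and 6.15, 5.03, 2.38 and 5.83 with HU210, so that 1 DMSO and 1 HU210 library were low. Fcf1, needed for processing of ribosomal RNA, was at 16.4 against 6.98 at 8 h and 9.74 to 18.0 in the earlier DMSO libraries. Bricd5 was listed at 0 in the 8 h DMSO library, at 0.0633 to 3.24 in the earlier ones and at 1.83 with HU210. On the lower side, Tmem258, a subunit of the oligosaccharyltransferase, was at 48.6, 61.7, 58.9 and 95.0 FPKM with DMSO and 46.5, 55.9, 52.6 and 53.7 with HU210. The DMSO 8 h library alone stood high. For Znrf2, a ubiquitin ligase, the DMSO 4 h library was high as well, with 42.8 FPKM in DMSO at 8 h, 11.3 to 30.3 in earlier DMSO and 19.0 with HU210. Dcun1d1, which promotes neddylation of cullins, had 14.4, 6.09 to 9.61 and 7.29, and Tmcc1, a membrane protein of the endoplasmic reticulum, 7.49, 3.63 to 4.65 and 3.71 in the same order.

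**Figure D4:**
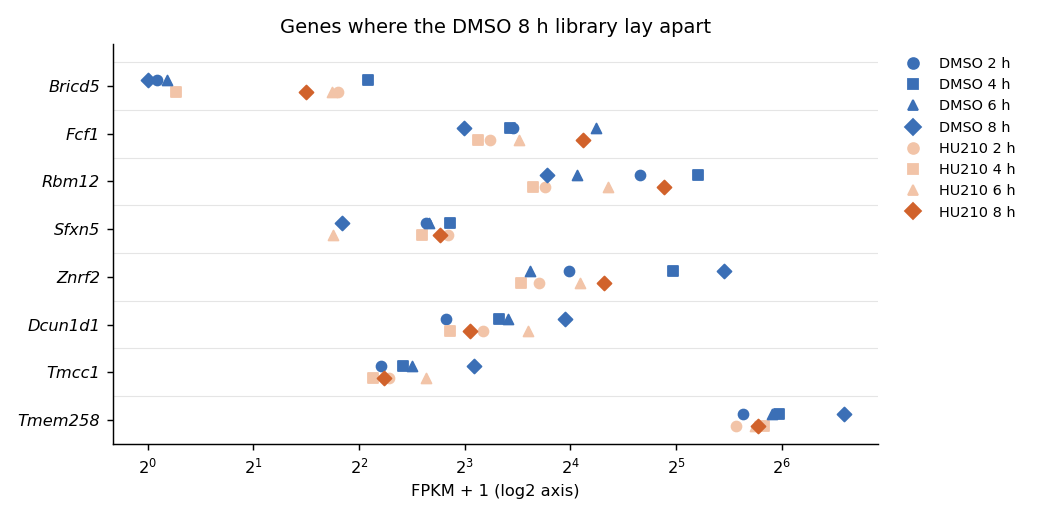
FPKM + 1 (x axis, log2 scale) in the 8 libraries for 8 genes past 1.5-fold at 8 h whose 8 h HU210 value (dark orange diamond) lies within the DMSO values of 2, 4 and 6 h. The DMSO 8 h value (blue diamond) is the lowest or the highest of the DMSO values in each.

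The 6 h comparison, with its own DMSO library, shared 23 of the 132 higher genes (17.4% of those at 8 h and 11.7% of the 196 at 6 h) and 9 of the 63 lower ones (14.3% and 12.5% of the 72). The opposite direction held at 6 h for 13 (9.85%) and 3 (4.76%). Over all genes 1.73% were higher and 0.637% lower at 6 h. Against the other hours, 10 of the 132 (7.58%) were also higher at 2 h and 5 (3.79%) at 4 h. Lower were 22 (16.7%) at 2 h and 52 (39.4%) at 4 h. Of the 63, 10 (15.9%) were also lower at 2 h and 14 (22.2%) at 4 h, while 4 (6.35%) and 11 (17.5%) were higher. Over all genes 0.504% were higher and 1.45% lower at 2 h, and 2.77% and 8.69% at 4 h. The protein-coding genes higher at both 6 h and 8 h, beside Pde4d, Stat5a, Sec63, Bricd5 and Gm8618, included Gspt1, the translation release factor eRF3a. Gspt1 was at 61.8, 61.9, 48.4 and 35.7 FPKM with DMSO and 58.3, 41.4, 76.5 and 67.4 with HU210, and its 8 h HU210 value was above all 4 DMSO values. Fxyd3, a modulator of the sodium pump, was at 2.29, 0.239, 1.03 and 0.114 with DMSO and 0.103, 0.153, 3.43 and 2.79 with HU210, and its DMSO values varied widely. BC049762 was at 4.41 and 2.01 FPKM at 6 h and 8 h against 0.106 to 1.48 with DMSO, and Btbd6 at 1.70 and 2.09 against 0.454 to 1.97. Adam12, a metalloproteinase, was at 22.2 and 19.7 against 11.0 to 23.5. For Adam12, and likewise for Naf1, Mex3c, Dcun1d5 and Gm3414, the DMSO 4 h library was the highest control and exceeded the 8 h HU210 value. The protein-coding genes lower at both hours were Pxylp1, Mamdc4 and Zc3h6. Mamdc4 was at 7.99, 4.48, 14.3 and 19.5 FPKM with DMSO and 12.5, 18.3, 7.92 and 11.3 with HU210, and Zc3h6, a zinc finger protein, at 1.18, 0.835, 2.93 and 1.45 and 0.805, 0.527, 0.674 and 0.629.

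**Figure D5:**
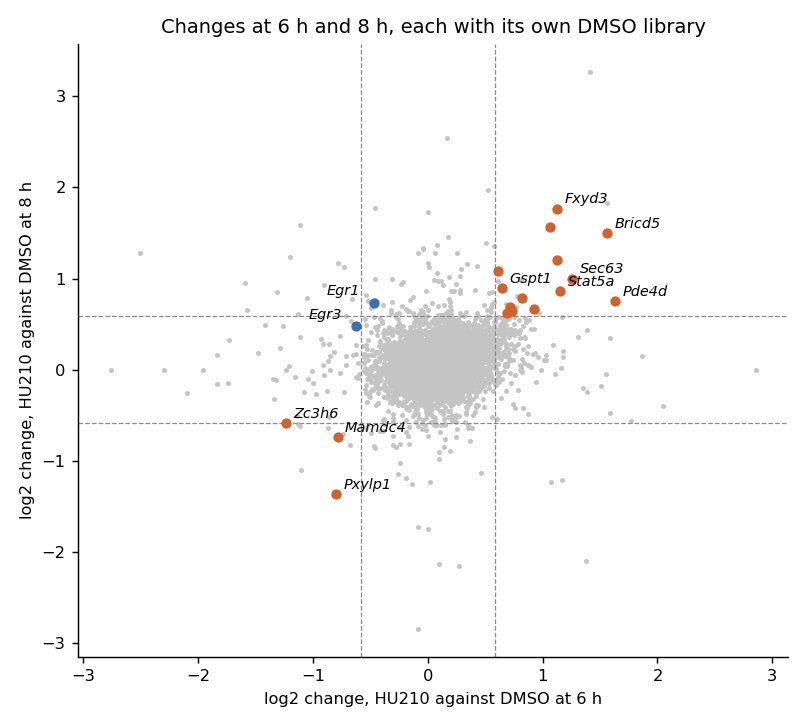
Change at 6 h (x axis) against change at 8 h (y axis), both as log2(FPKM + 1) of HU210 minus DMSO, for each compared gene in grey; dashed lines mark 1.5-fold. Orange points are the protein-coding genes past 1.5-fold the same way at both hours, and blue points are Egr1 and Egr3, which were -0.47 and -0.62 at 6 h and 0.74 and 0.48 at 8 h.

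Most genes of the receptor's own pathway stayed under 1.5-fold, as did most of all genes compared. Cnr1, the gene of CB1R, was at 17.3, 27.0, 20.2 and 24.7 FPKM in the DMSO libraries and 15.5, 18.3, 27.9 and 20.8 in the HU210 libraries, a change of -0.24 at 8 h that lay inside the DMSO range. It was the lowest change among the 12 compared endocannabinoid genes, and Faah, which degrades anandamide, had the highest, 0.24. None of the 12 passed 1.5-fold. In the cyclic nucleotide list, Pde4d and Prkg2 alone of 22 did, both higher, against 1.17% of all genes. Npr2, a natriuretic peptide receptor that makes cyclic GMP, had the lowest change of that list, -0.18.

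Among 27 growth cone genes, Tbcd and Stmn4, a microtubule-destabilising stathmin, were lower by 1.5-fold, against 0.557% of all genes. Stmn4 was at 24.5 FPKM, inside the 17.6 to 39.3 of DMSO. Mycn, the neuroblastoma oncogene, had the highest change among 18 genes of sympathetic identity, 0.24, and Map2, a dendritic microtubule protein, that of the growth cone list, 0.50, at 11.5 FPKM against 7.69 to 10.0.

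Membrane traffic lists stayed near the median of all genes, at 0.03 for exocytosis, 0.05 for endosome recycling and trans-Golgi sorting, and -0.02 for Golgi structure and coats. The one gene of these past 1.5-fold was Ehd4, an endosomal membrane remodeller, at 7.27 FPKM inside the 3.19 to 7.98 of DMSO. The extremes were Tbc1d4 with 0.46 and Syn2 with -0.17 in exocytosis, Hip1r with -0.52 in recycling, and Sec24a with 0.47 and Golph3l with -0.22 in the Golgi. Medians of other lists ran from -0.03 for 32 DNA replication genes to 0.12 for 21 hypoxia-inducible genes, apart from the histones. None of the DNA replication genes lay above all 4 DMSO libraries and 6 (18.8%) lay below. Of 31 mitosis genes 2 lay above and 6 (19.4%) below; over all genes 8.10% lay below. These counts below rose without the DMSO 6 h library and with each other scaling, as did the share of all genes. Without that library they were 16 (50%) and 14 (45.2%), against 13.7% of all genes. They were 10 (31%) and 10 (32%) with centring, against 13.0%. With the trend removed they were 12 (37.5%) and 11 (35.5%), against 13.7%. Without the DMSO 2 h library the shares were 18.8% and 19.4%, against 10.1%, and without DMSO 4 h 21.9% and 22.6%, against 14.3%. The 8 h pair itself differed little, with 14 of 32 replication genes and 16 of 31 mitosis genes above 0. Relative to each gene's DMSO mean, the mitosis median was -0.086 with HU210 and -0.085 with DMSO at 8 h. It was lower, -0.140, in the DMSO 6 h library. For the DNA replication genes these medians were -0.088, -0.067 and -0.135 in the same order. Pcna, the polymerase clamp, was lowest with -0.18, at 125 FPKM against 136 to 161.

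Some other lists had 1 member past 1.5-fold. The snRNP list had 2 of 46, Snrpb2 and Gemin4. The RNA polymerase II initiation and Elongator list had 2 of 44, Tbp and Elp4. Over all genes 1.17% were higher and 0.557% lower. Ddb2, a p53-induced damage sensor, was at 3.67 FPKM against 1.68 to 2.79 with DMSO, and Tbp, the TATA-binding protein, at 29.7 against 19.0 to 28.8; both lay above all 4. The others lay inside the DMSO range: Hspe1 of the chaperones with 0.72, Srsf1 of the splicing regulators with 0.62, Snrpb2 and Gemin4 of the snRNP genes with 0.59 and 0.62, Elp4 of Elongator with 0.61, Ankrd37 of the hypoxia genes with 0.59, Orc4 of the replication genes with 0.60 and Smc4, a condensin subunit lower with HU210, with -0.63. In lists with no such member the extremes were Agpat5 with 0.51 and Chkb with -0.41 among phospholipid genes, Idi1 with 0.52 and Pmvk with -0.21 among sterol genes, Ncf1 with 0.39 and Gpx4 with -0.31 among redox genes, and Arntl with 0.35 and Dbp with -0.31 among clock genes. The lowest changes in lists not yet named were -0.13 for Hspa8 of the chaperones, -0.06 for Srsf7, -0.19 for Smn1, -0.26 for Polr2a, -0.06 for Egln2 and -0.15 for Zmat3, and Ccnb1, a mitotic cyclin, had the highest of its list, 0.31. Replication-dependent histones had 18 of 20 genes above 0 and a median of 0.22, but relative to each gene's DMSO mean their median was 0.00 with HU210 and -0.19 with DMSO at 8 h, so here the 8 h control was the low one. H1f4 had the highest change, 0.51, at 6.04 FPKM inside the 3.93 to 6.54 of DMSO, and H2bc21 the lowest, -0.18.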

How the data were processed

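mRNA of N2A cells was sequenced in 8 libraries, 1 per condition, each from pooled mRNA of 2 to 3 independent experiments. Per the labels and the study's methods, the authors aligned reads to mm9 with TopHat2 2.0.8 and Bowtie2 2.1.0, used SAMtools 0.1.7, and estimated FPKM with Cufflinks (version not given in the sources used here) against an Ensembl annotation, with multi-read, fragment-bias and upper-quartile corrections. The deposited values are FPKM + 1, from which 1 was subtracted. Deposited columns of the authors' own fold changes and p-values were not used.

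Libraries were assigned by their labels. With 1 library a side there is no test; a gene was called past a fold of 1.5 on log2(FPKM + 1), after a filter at a mean of 1 FPKM over the 8 libraries. The script was checked on simulated data whose noise was smaller than the spread among the DMSO libraries. That check covers the computation and gives no rate of false calls in these data. FPKM keep no read counts, so the counting error of each value is unknown, although the study gives the reads per sample. Genes were placed with the GENCODE M1 annotation (mm9), and symbols written as in the reference tables for 16827 of 16980 genes. Promoters came from RefSeq (GRCm38.p6) and were matched by symbol. Python 3.11.15, pandas 2.3.3 and statsmodels 0.14.6 were used.

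Named genes were, among protein-coding genes, up to 8 in each direction with the largest change past all 4 DMSO libraries, 4 in each direction with DMSO 8 h outside and HU210 8 h within the earlier DMSO range, called members and extremes of 26 lists, and Cnr1. Added after values were seen were the range tier (8 genes in each direction farthest from DMSO), noncoding genes past all 4, genes shared with 6 h, counts of list members above all 4 DMSO libraries, genes overlapping a named gene, and further members of the immediate-early, ERK feedback, Jak-Stat and endoplasmic reticulum lists. The comparison, lists and rules were chosen with earlier results of these data known. Alternatives were a pseudocount of 0.1, no filter, a minimum of 5 FPKM, a fold of 1.3, median centring, removal of the trend on GC content and length (lowess, span 0.3), the mean of the 4 DMSO libraries as reference, and leaving out each earlier DMSO library. A few genes that these rules name are not reported here.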

Additional observations from a re-analysis of the deposited data

Results flagged for a closer look

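The following genes passed 1.5-fold one way at 8 h and the other way at another hour, each against its own DMSO library. With 1 pooled library per condition, the difference between hours was not tested. Opposite to a higher level at 8 h, the change at 4 h was -0.62 for Pde4d, -1.82 for Bricd5, -1.56 for Rbm12, -1.19 for Gm8618, -0.94 for Btbd6 and -0.65 for Sec63. It was -0.90 for Adam12, -1.06 for Gm3414, -1.40 for Naf1, -1.04 for Mex3c and -1.08 for both Dcun1d5 and Ehd4. It was -1.49 for Hspe1, -1.13 for Srsf1 and -0.87 for Ankrd37. In each of these the DMSO 4 h library was the highest control. At 6 h the change was -0.73 for Fcf1, -0.90 for Sfxn5 and -0.66 for Prkg2, and at 2 h -0.90 for Rbm12, -1.57 for Fxyd3 and -0.93 for the small RNA Gm25588. Opposite to a lower level at 8 h, the change at 4 h was 0.59 for H2-Q6, 1.82 for Mamdc4 and 0.85 for Hectd2os. For Mamdc4 it was 0.59 at 2 h, and for Mir1b 0.71 at 2 h and 1.38 at 6 h.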

How the results depend on the processing

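With no replicates, what limits these values is the spread among DMSO libraries and the unknown number of reads behind each value. No paired analysis was possible because the 8 h difference is 1 library against 1. The 4 pairs of hours would test an average over hours, which is another comparison and was not run. Counts are given in the order higher than DMSO, lower, past all 4 DMSO libraries higher and lower, HU210 8 h above and below the earlier DMSO libraries, DMSO 8 h above and below them, and outside the DMSO range higher and lower; the reported values are 132, 63, 10, 11, 22, 40, 21, 57, 67 and 31. Median centring and removal of the trend on GC content and length kept all 10 within 1.5 times, but evened the split of higher and lower genes to 97 and 85 and to 94 and 88, and that of genes outside the range to 50 and 44 and to 52 and 42. A fold of 1.3 gave 495, 163, 34, 29, 56, 73, 70, 154, 176 and 68. A pseudocount of 0.1 gave 237 and 104, 22 and 27, 34 above for HU210, 93 below for DMSO, and 113 and 55 outside the range. Without a filter, 99 were lower, 29 higher past all 4, 44 and 35 above for HU210 and DMSO, and 113 above the range. A minimum of 5 FPKM gave 63 and 27, 1 and 4, 7 and 22 for HU210, 11 above for DMSO, and 18 and 9 outside the range, from fewer genes; of the genes past all 4, Ap4s1 alone was kept among the higher. The mean of the 4 DMSO libraries as reference gave 74 higher, and turned 2 of the 71 named genes past 1.5-fold, Hspe1 to -0.038 and Mamdc4 to 0.14, and 18 of the 119 named genes under it, among them Ccnb1 to -0.19, Isg15 to 0.32, Hspa8 to 0.20 and Golph3l to 0.06. Centring and trend removal turned 11 and 7 of the 119, none with a change over 0.07, and none of the 71. Leaving out 1 earlier DMSO library gave ranges of 12 to 23 and 12 to 16 past all 4, of 29 to 56 and 54 to 60 for HU210 at 8 h, of 39 to 57 and 69 to 152 for DMSO at 8 h, and of 75 to 85 and 34 to 41 outside the range, where fewer libraries make the rule easier to meet; the genes past all 4 DMSO libraries pass by construction. The counts of DMSO 8 h moved most without the DMSO 4 h library (57 above) and without the 6 h library (152 below). The cause of the other shifts was not tested.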
